A study of Mus musculus with 12 samples.

Results

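Of the 23284 genes measured in sorted small intestinal ILC3s, 10 that make, lengthen, desaturate or activate fatty acids are described here. They were chosen by name as the genes of cytosolic fatty acid synthesis (Acly, Acaca and Fasn), elongation (Elovl6 and Elovl5), desaturation (Scd1 and Scd2) and activation (Acsl1, Acsl3 and Acsl5), and all 10 were found in the FPKM table. ILC3s are group 3 innate lymphoid cells, which reside in the gut and secrete cytokines such as IL-22 and IL-17. The mice were HR-1 hairless mice 18 weeks of age. PA milk mice were born to mothers on a normal diet and moved after birth to foster mothers whose chow held added palmitic acid, whereas ND mice had mothers on a normal diet, and fostering of the ND mice is not stated. All offspring ate the normal diet once they fed by themselves, and the offspring otherwise carried no engineered allele that the labels name. Cells came from the intraepithelial (IEL) and the lamina propria (LP) layer, with 3 libraries each of PA milk IEL, ND IEL, PA milk LP and ND LP, 12 in all. How many mice entered a library is not given in the sources used here, so the p-values below measure the spread between these libraries. The labels give the IEL and LP libraries of a diet the same numbers, and whether same-numbered libraries came from the same mouse is not stated.

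The libraries were made from very small amounts of RNA by full-length amplification, and they differed widely in what they detected. Recovered depth was 8.75 to 14.6 M reads per library, and between 4390 and 11378 genes reached an FPKM of 1 (FPKM, fragments per kilobase of transcript, scaled to the mapped fragments of the library, corrects for gene length and so allows levels of different genes to be compared). The fewest genes were found in replicate 2 of PA milk IEL (4390), of PA milk LP (5637) and of ND IEL (7863). Of 25 genes of ILC3s, 2 to 22 reached an FPKM of 1 in the PA milk IEL libraries, 7 to 24 in ND IEL, 4 to 19 in PA milk LP and 17 to 24 in ND LP. The fewest, 2, 4 and 7, were found in replicate 2 of PA milk IEL, PA milk LP and ND IEL. Thy1, which encodes a surface marker used in the sort, was listed at 1.87, 0 and 3.77 FPKM in PA milk IEL, at 3.03, 0 and 3.95 in ND IEL, at 0, 0 and 1.02 in PA milk LP and at 0, 14.2 and 5.11 in ND LP. It was thus listed at 0 in 5 of the 12 libraries. Other genes of sort markers were listed at 0 less often. Cd4 was at 0 only in PA milk LP replicate 1, and elsewhere at 1.89 to 63.3 FPKM. Il2ra, which encodes CD25, was at 0 only in ND IEL replicate 2, and Nrp1 only in PA milk IEL replicate 2. Some values above 0 were also very low. Il2ra was at 0.121 FPKM in PA milk IEL replicate 2, at 0.055 in PA milk LP replicate 1 and at 0.130 in PA milk LP replicate 2. Nrp1 was at 0.016 in PA milk LP replicate 2. Ptprc, which encodes CD45, was at 0.043 FPKM in PA milk IEL replicate 2 and at 22.0 to 76.8 in the other libraries. Genes of enterocytes and other epithelial cells (31 of the 32 listed were in the table) made up 0.713% to 7.41% of all FPKM in PA milk IEL, 7.30% to 11.4% in ND IEL, 0.236% to 0.404% in PA milk LP and 2.02% to 2.92% in ND LP. The share was therefore higher in every ND library than in any PA milk library of LP. Genes of stroma, endothelium and adipocytes (14 listed) made up 0.0033% to 0.0202% of all FPKM in the IEL libraries and 0.0014% to 0.347% in LP. Of these, the adipocyte genes Adipoq and Plin1 were listed at 0 in all 12 libraries, whereas Cidec reached 163 FPKM in PA milk IEL replicate 3 and the fibroblast gene Dcn 1973 FPKM in PA milk LP replicate 1.

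Fatty acid synthesis begins with ATP citrate lyase (Acly), which releases acetyl-CoA from citrate in the cytosol. Acetyl-CoA carboxylase 1 (Acaca) turns acetyl-CoA into malonyl-CoA, and fatty acid synthase (Fasn) condenses these units into palmitic acid. Elovl6 lengthens palmitic acid to stearic acid, Elovl5 lengthens polyunsaturated fatty acids, and the stearoyl-CoA desaturases Scd1 and Scd2 place a double bond in saturated acyl chains to give oleic and palmitoleic acid. Free fatty acids, made or taken up from milk and diet, have to be joined to coenzyme A before they are oxidised or built into lipids. The long-chain acyl-CoA synthetases Acsl1, Acsl3 and Acsl5 catalyse that step, and Acsl5 is known to be abundant in enterocytes of the small intestine.

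Promoter windows are shown for Acsl5, the member with the largest difference between layers, and for Elovl6 and Acsl1, the 2 whose diets did not overlap in LP. Over all tested genes, 6.6% had every PA milk LP library below every ND LP library and 2.97% every one above. None of these differences passed the threshold of the main test below. Each window holds 250 bases before and 50 bases from the start site on the strand of the gene, from RefSeq on GRCm38.p6. Capitals mark matches on either strand to the sterol regulatory element TCACNCCAC, the E-box CACGTG or the CCAAT box. The windows lie at chr19:55253119-55253418 for Acsl5, at chr3:129532136-129532435 for Elovl6 and at chr8:46470787-46471086 and chr8:46490716-46491015 for 2 start sites of Acsl1, all on the plus strand.
Acsl5: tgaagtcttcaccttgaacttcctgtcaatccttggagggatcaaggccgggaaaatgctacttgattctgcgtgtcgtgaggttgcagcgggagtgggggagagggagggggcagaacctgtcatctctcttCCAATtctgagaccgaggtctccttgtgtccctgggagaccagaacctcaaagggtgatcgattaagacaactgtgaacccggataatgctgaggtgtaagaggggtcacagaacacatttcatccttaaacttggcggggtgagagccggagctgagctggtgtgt
Elovl6: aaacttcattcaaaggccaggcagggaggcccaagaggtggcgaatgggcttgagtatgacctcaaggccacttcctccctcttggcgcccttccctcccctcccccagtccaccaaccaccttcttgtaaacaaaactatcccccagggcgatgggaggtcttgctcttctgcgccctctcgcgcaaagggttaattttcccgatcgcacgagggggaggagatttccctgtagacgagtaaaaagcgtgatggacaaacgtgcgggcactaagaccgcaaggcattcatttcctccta
Acsl1, upstream start: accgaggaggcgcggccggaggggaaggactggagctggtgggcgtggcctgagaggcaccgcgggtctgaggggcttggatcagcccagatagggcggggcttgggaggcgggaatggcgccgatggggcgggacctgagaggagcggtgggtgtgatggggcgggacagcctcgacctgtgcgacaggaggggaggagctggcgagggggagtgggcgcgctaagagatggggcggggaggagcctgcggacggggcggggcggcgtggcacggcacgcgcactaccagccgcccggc
Acsl1, downstream start: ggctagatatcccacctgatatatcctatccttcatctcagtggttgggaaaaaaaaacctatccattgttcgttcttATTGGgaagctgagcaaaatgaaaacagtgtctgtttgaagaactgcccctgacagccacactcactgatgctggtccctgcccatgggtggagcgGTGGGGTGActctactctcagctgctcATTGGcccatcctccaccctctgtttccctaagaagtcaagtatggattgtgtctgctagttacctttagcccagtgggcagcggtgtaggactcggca

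The downstream Acsl1 window held 1 match to the sterol regulatory element, on the minus strand at -76 from the start site, and 2 CCAAT matches. The Acsl5 window held 1 CCAAT match, and the Elovl6 and the upstream Acsl1 windows held none of these letters. Across 32851 mouse promoter windows of the same length, the sterol element was found in 1.24%, the E-box in 7.15% and the CCAAT box in 37.4%. Windows were found for 8 of the 10 members, Scd1 and Scd2 being the others. Among the remaining windows the E-box was found in that of Elovl5, where the palindrome at -161 was read on both strands, and CCAAT matches in those of Elovl5, Acly, Fasn and Acsl3. The matches are a description of these letters.

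The members occupied very different levels. Ordered by mean FPKM over the 12 libraries, Acsl5 came first at 206, followed by Acly at 40.9, Elovl5 at 37.3, Scd2 at 12.6, Acsl1 at 6.47, Elovl6 at 5.41, Acsl3 at 5.33, Fasn at 2.69, Scd1 at 1.11 and Acaca at 0.471. The standard deviations over the 12 libraries were of the size of these means (212 for Acsl5, 54.6 for Acly, 28.4 for Elovl5 and 2.38 for Fasn), so that neighbours in the order were not separated beyond their spread. By the median over libraries Elovl5 (38.1) stood above Acly (26.1), whose mean rests on 206 FPKM in PA milk IEL replicate 2. Acsl1 (2.46), whose mean rests on 31.4 FPKM in PA milk IEL replicate 3, stood below Elovl6 (5.18), Acsl3 (4.73) and Fasn (2.56). Acsl5 was the most abundant member in 9 libraries. Elovl5 held that place in PA milk LP replicates 1 and 3 and Acly in ND LP replicate 1. Acsl5 alone gave 43.6% to 95.1% of the summed FPKM of the 10 genes in IEL libraries and 20.5% to 58.8% in LP libraries. The enzymes that carry out synthesis itself, Acaca and Fasn, thus ranked among the lowest. How many members reached an FPKM of 1 followed the sparse libraries, with 3, 4 and 4 of 10 in PA milk IEL, ND IEL and PA milk LP replicate 2 and 6 to 9 in the other 9 libraries.

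**Figure D1:**
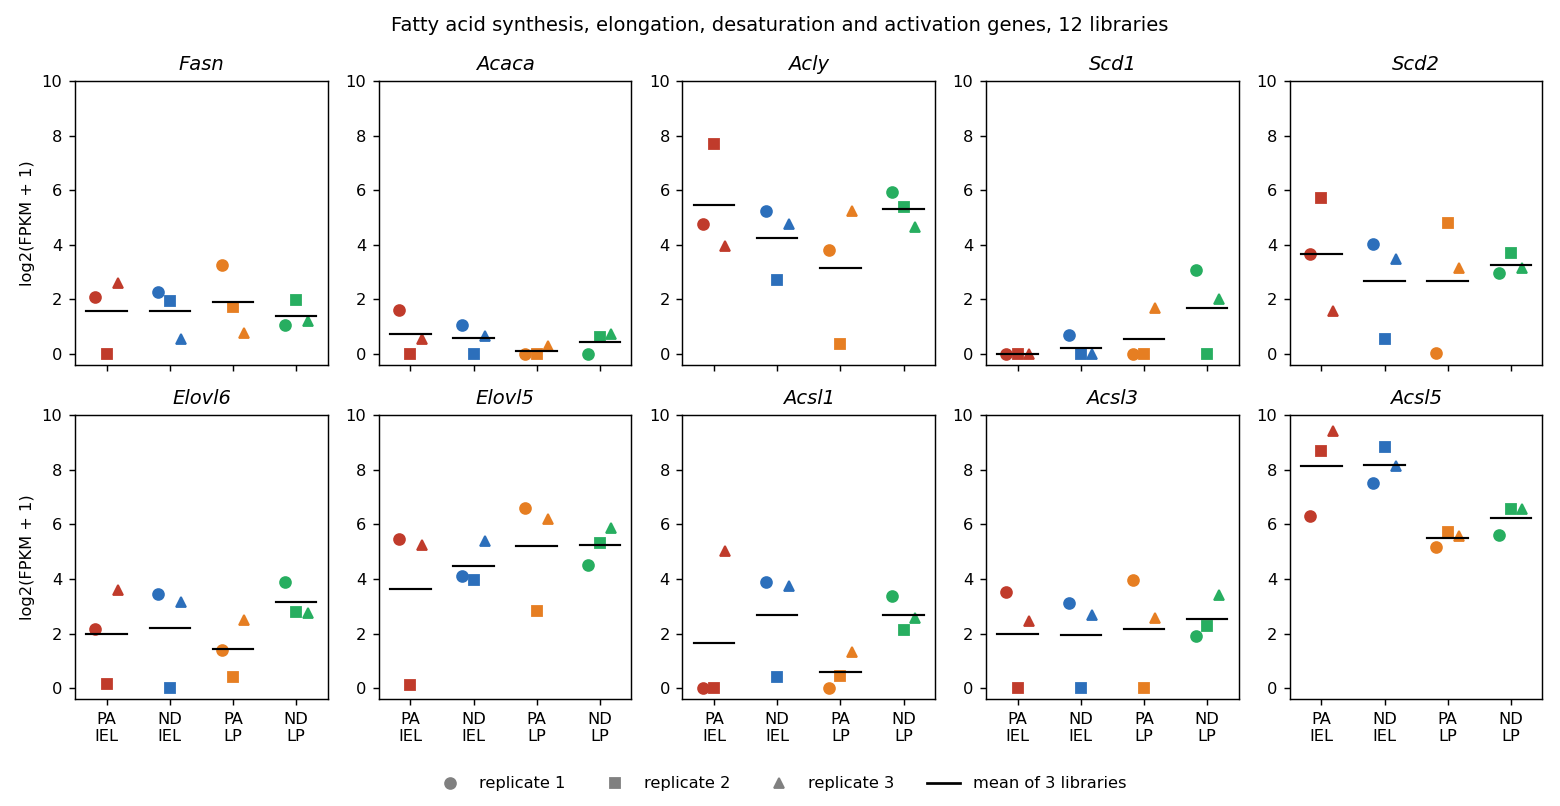
FPKM of each of the 10 genes in the 12 libraries as log2(FPKM + 1), with 3 libraries per group (symbols, replicate number; line, mean). Acsl5 is the highest gene in 9 of 12 libraries and separates the layers within each diet, from 78.0 to 691 FPKM in IEL and from 34.9 to 94.6 in LP, whereas the other genes spread widely within groups.

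Acly (chromosome 11, 100476353-100528000, minus strand; GENCODE vM21, GRCm38, as for all positions of genes below) was listed at 26.2, 206 and 14.4 FPKM in PA milk IEL and at 37.1, 5.47 and 26.1 in ND IEL. Its LP values were 13.2, 0.305 and 37.2 with PA milk and 59.7, 40.6 and 24.1 with ND. The highest and the lowest value both belonged to the libraries with the fewest genes, and the diets overlapped in both layers. By limma on log2(FPKM + 1), the PA milk minus ND change was 1.23 ± 1.33 (standard error; adjusted p = 0.953) in IEL and -2.16 ± 1.33 (adjusted p = 0.979) in LP. Leaving out 1 library moved the IEL change between 0.12 (without PA milk replicate 2) and 1.99 (without PA milk replicate 3). It moved the LP change between -3.21 (without PA milk replicate 3) and -0.78 (without PA milk replicate 2). The difference between the changes, LP minus IEL, was the largest among the members at -3.40 ± 1.88, but did not pass (adjusted p = 1), and it shrank to -0.90 without the 2 sparsest libraries and to -0.13 without the 3.

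Fasn (chromosome 11, 120805846-120824547, minus strand) was detected at low levels in nearly every library. In IEL its values were 3.25, 0.0075 and 5.11 FPKM with PA milk and 3.79, 2.84 and 0.474 with ND. In LP they were 8.51, 2.27 and 0.714 with PA milk and 1.07, 2.92 and 1.30 with ND. The value of 0.0075 corresponded to 1 recovered read. Diets overlapped in both layers, with changes of -0.02 ± 1.03 in IEL and 0.51 ± 1.03 in LP (limma, adjusted p = 1 and 0.982). Acaca (chromosome 11, 84129672-84401651, plus strand), which supplies Fasn with malonyl-CoA, was lower still. It was listed at 2.07, 0 and 0.447 FPKM in PA milk IEL, at 1.09, 0 and 0.588 in ND IEL, at 0, 0 and 0.238 in PA milk LP and at 0, 0.554 and 0.665 in ND LP. Only 2 libraries reached an FPKM of 1, so that Acaca was the 1 member of 10 not tested (a gene was tested if 3 or more libraries reached that value). In the 5 libraries listed at 0, that value allows up to 0.0246 to 0.0311 FPKM, the level of 3 reads, counting error only.

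Elovl6 (chromosome 3, 129532355-129638495, plus strand) was listed at 3.51, 0.101 and 11.2 FPKM in PA milk IEL and at 9.96, 0 and 7.91 in ND IEL, which overlapped. Its LP values were 1.65, 0.318 and 4.60 with PA milk and 13.9, 5.99 and 5.77 with ND. Every PA milk LP library was thus below every ND LP library, although the nearest, at 4.60 and 5.77, lay close together. The LP change was -1.72 ± 1.27 (limma, adjusted p = 0.979), -1.21 without the 2 libraries with the fewest genes, and the ratio of the mean FPKM was 0.257. The IEL change was -0.23 ± 1.27 (adjusted p = 1). Elovl5 (chromosome 9, 77917364-77984519, plus strand), the elongase of polyunsaturated chains, was listed at 43.6, 0.085 and 37.2 FPKM in PA milk IEL and at 16.2, 14.7 and 41.0 in ND IEL. Its LP values were 97.1, 6.13 and 73.3 with PA milk and 21.9, 39.1 and 56.9 with ND. In both layers PA milk replicate 2 was the lowest value while replicates 1 and 3 lay within or above the ND values. Changes were -0.87 ± 1.39 in IEL and -0.01 ± 1.39 in LP (limma, adjusted p = 0.986 and 1), and both turned positive without the 2 libraries with the fewest genes (0.88 and 1.18).

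Scd1 (chromosome 19, 44394455-44407879, minus strand) was mostly undetected. It was listed at 0 in all 3 PA milk IEL libraries and in ND IEL replicates 2 and 3, and at 0.626 FPKM, or 45 reads, in ND IEL replicate 1. Its LP values were 0, 0 and 2.19 with PA milk and 7.51, 0 and 3.06 with ND. A value of 0 allows up to 0.0421 to 0.0663 FPKM at 3 reads. The LP change was -1.14 ± 0.77 (limma, adjusted p = 0.979), with overlapping diets. Scd2 (chromosome 19, 44293674-44306864, plus strand) was the more abundant desaturase. Its values were 11.7, 51.0 and 1.97 FPKM in PA milk IEL and 15.2, 0.476 and 10.2 in ND IEL. In LP they were 0.030, 26.6 and 7.93 with PA milk and 6.75, 11.9 and 7.78 with ND. PA milk replicate 2 was the highest library of each layer, and the diets overlapped. Changes of 0.96 ± 1.47 in IEL and -0.60 ± 1.47 in LP did not pass (limma, adjusted p = 0.984 and 0.987).

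Acsl1 (chromosome 8, 46471037-46536051, plus strand) was listed at 0, 0 and 31.4 FPKM in PA milk IEL and at 13.9, 0.318 and 12.5 in ND IEL. PA milk IEL therefore held both the highest value of this gene and 2 libraries listed at 0. Its LP values were 0, 0.347 and 1.51 with PA milk and 9.28, 3.41 and 4.99 with ND, so that every PA milk library was below every ND library. The means were 0.620 ± 0.793 and 5.89 ± 3.04 FPKM (SD, n = 3 each). The LP change was -2.11 ± 1.39 and the IEL change -1.01 ± 1.39 (limma, adjusted p = 0.979 and 0.968). Leaving out any 1 library gave LP changes from -2.48 to -1.77 and IEL changes from -0.18 (without PA milk replicate 1 or 2) to -2.69 (without PA milk replicate 3). Acsl3 (chromosome 1, 78657825-78707743, plus strand), the synthetase associated with lipid droplets, was listed at 10.5, 0 and 4.47 FPKM in PA milk IEL, at 7.78, 0 and 5.44 in ND IEL, at 14.6, 0 and 4.98 in PA milk LP and at 2.76, 3.89 and 9.54 in ND LP. The 3 values of 0 were those of the 3 libraries with the fewest genes. Changes were 0.05 ± 1.35 in IEL and -0.35 ± 1.35 in LP (limma, adjusted p = 1 and 0.993).

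Acsl5 (chromosome 19, 55251938-55297720, plus strand) was found in every library. It was listed at 78.0, 415 and 691 FPKM in PA milk IEL and at 181, 460 and 279 in ND IEL, means of 395 ± 307 and 307 ± 141 (SD, n = 3 each). Its LP values were 34.9, 51.4 and 47.1 with PA milk and 48.3, 94.6 and 93.2 with ND, means of 44.5 ± 8.52 and 78.7 ± 26.3. Within each diet every IEL library exceeded every LP library, whereas across diets PA milk IEL replicate 1 lay below ND LP replicates 2 and 3. Such an order within both diets was seen in 1.25% of the 12502 tested genes in the direction of IEL, and Acsl5 was the 1 member with it. In the 3 libraries with the fewest genes, replicates 2 of PA milk IEL, PA milk LP and ND IEL, it was at 415, 51.4 and 460 FPKM. Between diets Acsl5 overlapped in IEL (-0.02 ± 0.75) and in LP (-0.76 ± 0.75; limma, adjusted p = 1 and 0.979).

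For the question of whether palmitic acid in milk altered these genes, no member passed the test in IEL or in LP. At an adjusted p under 0.05 limma called 0 of 9 tested members in IEL, where 0.0% of all 12502 genes were called, and 0 of 9 in LP, where 0.0% were called. At an unadjusted p under 0.05 the members again gave 0 in both layers, against 3.58% of all genes in IEL and 4.7% in LP. In IEL 3 members had changes above 0 and 6 below, with a median of -0.02 beside -0.30 for all tested genes, of which 60.5% were below 0. Scd1, undetected in PA milk IEL, was at -0.23 and so already below that median. Setting its PA milk IEL level to the upper limit of 3 reads a library, a mean of 0.0548 FPKM, therefore could not move the median. The ND IEL mean of 0.209 FPKM, which rests on replicate 1 alone, was at least 3.81-fold above that level. In LP 1 member was above 0 and 8 were below, with a median of -0.76 beside -0.36 for all genes, of which 62.2% were below 0. Relative to the median of all genes, 7 members lay above and 2 below in IEL, and 3 above and 6 below in LP. Scaling the libraries on leukocyte genes left 2 above and 7 below 0 in each layer, and upper quartile scaling 2 above and 7 below in IEL and 1 and 8 in LP.

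Members whose diets did not overlap were Elovl6 and Acsl1 in LP, both lower in PA milk, and none in IEL. Over all tested genes 6.6% had every PA milk LP library below every ND LP library and 2.97% had every one above. The shares in IEL were 5.22% below and 2.97% above. With 3 libraries against 3, an exact two-sided permutation test of a single gene cannot go below p = 0.1. The change in LP minus that in IEL was called for 0 of 9 members and for 0.0% of all genes (2.34% at an unadjusted p under 0.05, 0 members), with 7 of 9 members below 0 against 50.8% of all genes and a member median of -0.91 beside -0.03. Standard errors of the diet changes were 0.75 to 1.47 on the log2 scale, and a p that misses the threshold does not show that the diets were alike.

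**Figure D2:**
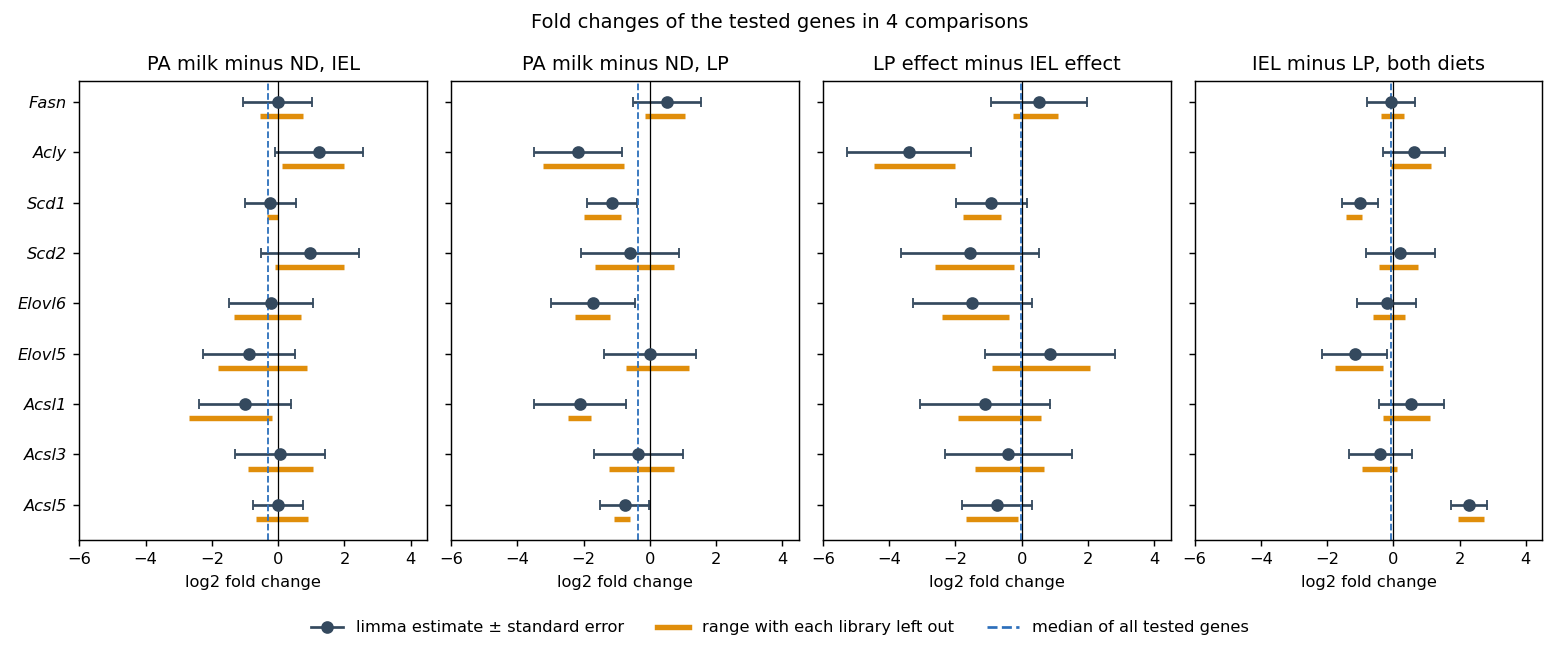
limma log2 fold changes on the log2(FPKM + 1) scale with standard errors for the 9 tested genes in 4 comparisons, with the range when each of the 12 libraries is left out and the median of all 12502 tested genes (dashed). Acsl5 in IEL minus LP, at 2.28 ± 0.53, has the smallest error relative to its size. The standard errors of all PA milk minus ND changes in IEL span 0. In LP those of Acly, Acsl1, Elovl6, Scd1 and Acsl5 do not reach 0, and none of these changes passed the threshold.

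Between the layers, averaged over the diets, Acsl5 was 2.28 ± 0.53 higher in IEL on the log2(FPKM + 1) scale, with means of 351 ± 219 and 61.6 ± 25.6 FPKM (SD, n = 6 each) and a ratio of 5.70. It narrowly missed the threshold (limma, unadjusted p = 0.000563, adjusted p = 0.0538). With the label number as a block, as if same-numbered libraries shared a mouse, the adjusted p was 0.0936 and the count of all genes called was 29 in place of 110. Thus 0 of 9 members were called, where 0.88% of all genes were (58 higher and 52 lower in IEL), and 1 of 9 at an unadjusted p under 0.05, where 13.4% were. Acsl5 passed without PA milk IEL replicate 1 (adjusted p = 0.00914), without PA milk LP replicate 2 (0.0285), without the 2 libraries with the fewest genes (0.0355) and with sample quality weights (0.0222). In the remaining 18 of its 22 alternatives it did not pass, and the limma adjusted p ranged from 0.00914 to 0.449 over all 22, with log2 fold changes from 1.84 to 2.75. Scd1 was at -1.01 ± 0.54 and Elovl5 at -1.17 ± 0.98 (limma, adjusted p = 0.452 and 0.703), and the other 6 members lay between -0.39 and 0.62. Below 0 were 5 of 9 members and 53.4% of all genes.

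Epithelial genes differed between the same groups. Of the 31 tested epithelial genes, 26 were higher in IEL, 8 of them called, with a median of 2.46. In PA milk 29 of 31 were lower in IEL (median -2.26) and 31 of 31 in LP (median -1.997), none of them called (limma, 6 and 12 at an unadjusted p under 0.05). Beside these shares, Acsl5 was at 415 FPKM in PA milk IEL replicate 2, where epithelial genes made up 0.713% of FPKM, and at 78.0 in replicate 1 with 1.70%. In the ND LP libraries, with 2.02% to 2.92%, it was at 48.3 to 94.6. Single epithelial genes differed in their order between PA milk IEL replicates 1 and 2. Alpi was at 116 and 272 FPKM, Apob at 1.58 and 28.5 and Fabp1 at 670 and 898, the order of Acsl5. Most of the 31 genes had the other order, among them Epcam, at 463 and 0.196, Krt8, at 1385 and 462, and Apoa1, at 2462 and 1575. Of the 31 epithelial genes, 31 and 18 reached an FPKM of 1 in these replicates. Acsl1 and Elovl6 were lowest in LP in the PA milk libraries, where the epithelial share was also lowest. In ND IEL replicate 2, 1 of the 3 libraries with the fewest genes, the share was highest at 11.4% and they were at 0.318 and 0. The ILC3 genes also lay mostly on 1 side, with 18 of 25 higher in PA milk in IEL (median 0.80) and 23 of 25 lower in LP (median -1.77), none called (1 and 0 higher, 1 and 8 lower at an unadjusted p under 0.05). T cell genes were lower in PA milk for 10 of 11 in each layer (medians -1.93 in IEL and -1.99 in LP), and genes of B and plasma cells for 3 of 7 in IEL (median 0.0035) and 7 of 7 in LP (median -3.71), again with none called. Myeloid genes had medians of 0.03 in IEL and 0.68 in LP, and those of stroma, endothelium and adipocytes 0.0001 and 0.03. The part of these cell types in the results on Acsl5, Acsl1 and Elovl6 was not tested, and in bulk samples fewer cells of a type and less RNA per cell cannot be told apart.

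**Figure D3:**
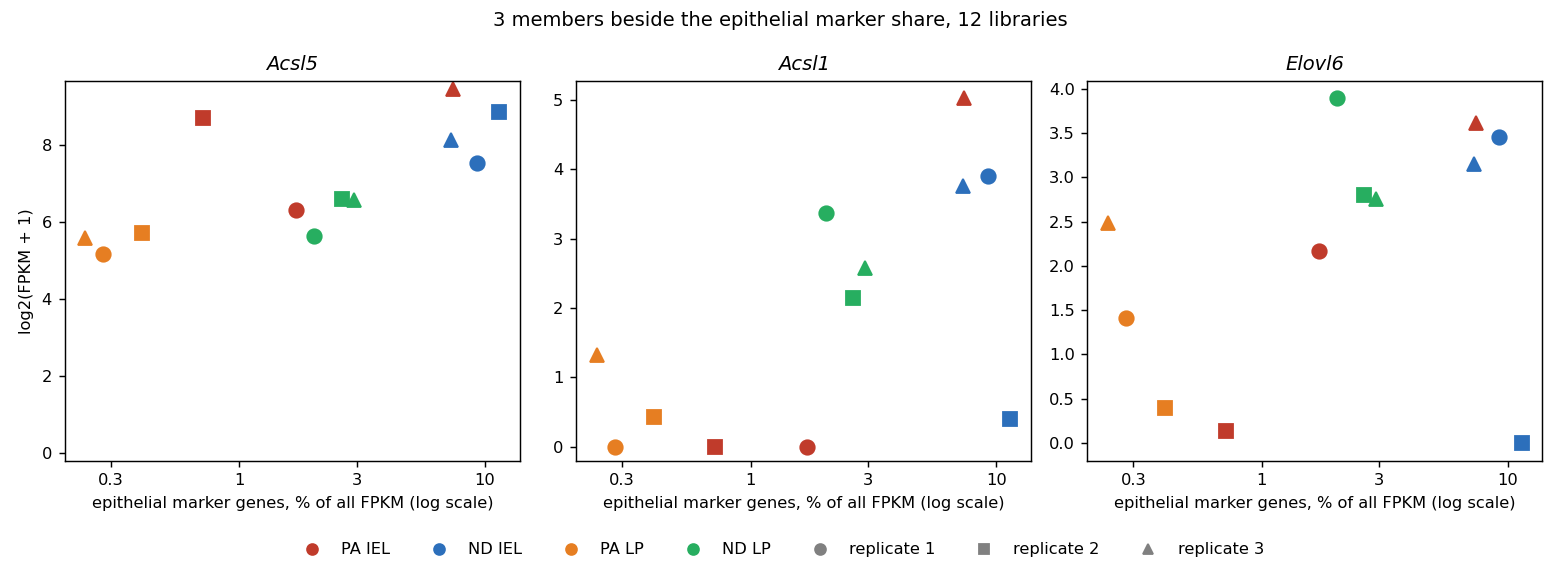
log2(FPKM + 1) of Acsl5, Acsl1 and Elovl6 against the share of all FPKM from 31 epithelial genes (log axis) in the 12 libraries. PA milk LP libraries sit at the left with 0.236% to 0.404%, and PA milk IEL replicate 2 has Acsl5 at 415 FPKM at a share of 0.713%. The share pools the list. Most of the 31 genes were lower in PA milk IEL replicate 2 than in replicate 1, and the others were higher.

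Genes whose pattern over the 12 libraries was like that of each member were found by Spearman's rho among all tested genes. For Acsl5 these were Klc4 (rho = 0.993), Acaa1a (0.958) and Apob (0.958). Klc4 was at 21.8, 70.9 and 81.9 FPKM in PA milk IEL and at 12.5, 14.1 and 12.9 in PA milk LP, and at 48.5, 132 and 64.1 in ND IEL and 13.5, 33.3 and 31.3 in ND LP, which gave nearly the order of Acsl5. Acaa1a encodes a peroxisomal thiolase and Apob the structural protein of chylomicrons. For Elovl6 a near one was Nadsyn1 (0.958), for Acsl1 0910001L09Rik (0.916), Esrp1 (0.913) and Neo1 (0.913), for Acly Spg21 and Srpk2 (0.972 each), for Scd2 Mlxip (0.972), for Elovl5 Tulp4 (0.986) and Itga4 (0.977), for Acsl3 Sept8 (0.986), for Fasn Elof1 and Usp5 (0.874 each) and for Scd1 Ccl19 (0.970). Scd1 rests on 4 libraries above 0. Among the 36 pairs of tested members, rho was highest for Elovl6 with Acsl1 (0.859) and Elovl5 with Acsl3 (0.817) and lowest for Elovl5 with Acsl5 (-0.538). All these values share the same 12 libraries and their sparse members, and they describe the pattern only.

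The neighbouring steps of the pathway comprised 101 tested genes for citrate and NADPH supply, regulation, elongation, desaturation, activation, thioesterases, uptake and use of acyl chains. Between diets none was called in either layer by limma, where 0.0% of all tested genes were. In IEL 35 were higher and 66 lower (0 and 4 at an unadjusted p under 0.05, median -0.75). In LP 28 were higher and 72 lower (0 and 3, median -0.44). Over all tested genes 60.5% were below 0 in IEL (3.58% at an unadjusted p under 0.05 by limma, median -0.30). The shares in LP were 62.2% and 4.7%, with a median of -0.36. Idh1, which supplies NADPH, was at 41.8, 1.06 and 517 FPKM in PA milk IEL and at 149, 249 and 177 in ND IEL. The citrate carrier Slc25a1, upstream of Acly, was at 85.7, 0.099 and 96.5 in PA milk IEL and at 101, 137 and 89.6 in ND IEL, and at 57.5, 0.186 and 53.6 in PA milk LP and at 55.4, 56.5 and 84.4 in ND LP. Both were low in PA milk replicate 2 of IEL.

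The most abundant regulators were found in every library. The liver X receptor β gene Nr1h2 lay between 65.4 and 142 FPKM in all 12 libraries, with changes of -0.01 ± 0.59 in IEL and 0.43 ± 0.59 in LP. In LP every PA milk library (105 to 130) was above every ND library (65.4 to 98.9). Of the 101 genes, 5 had every PA milk LP library above every ND LP library and 11 every one below. Over all tested genes 2.97% were above and 6.6% below. Mlx, the partner of the carbohydrate response factor, lay between 32.3 and 111. The elongation cycle reductase Tecr (169 to 361) and the elongase Elovl1 (37.0 to 134) were also found in every library. Cyb5r3, which passes electrons to the desaturases, was at 0.679 FPKM in PA milk IEL replicate 2 and at 673 in replicate 3. The sphingolipid desaturase Degs1 was the 1 gene of the 101 with every IEL library (28.1 to 58.2) below every LP library (60.9 to 172), a log2 fold change of -1.22 ± 0.47 (limma, adjusted p = 0.265), an order seen in 0.608% of all genes.

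Among the genes of activation and hydrolysis, the fatty acid transporter with acyl-CoA synthetase activity Slc27a2 was at 6.69, 0 and 179 FPKM in PA milk IEL and at 47.7, 127 and 70.0 in ND IEL. LP libraries were at 0.037, 0.044 and 0 with PA milk and 8.13, 0.226 and 12.2 with ND, below in every PA milk library. Its change in LP was -2.37 ± 1.60 and its layer difference 3.64 ± 1.13 (limma, adjusted p = 0.979 and 0.147). Slc27a4 had a layer difference of 2.69 ± 0.92 (adjusted p = 0.188). The thioesterases Acot13 (50.9 to 227 FPKM) and Acot7 (20.7 to 323) overlapped between layers and between diets.

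Of the 101 genes, 3 were called between the layers, where 0.88% of all genes were, and 15 were higher and 9 lower in IEL at an unadjusted p under 0.05, where 13.4% of all genes passed. The intestinal fatty acid binding protein Fabp2 was 5.02 ± 0.89 higher in IEL on the log2 scale (limma, adjusted p = 0.015), and Mogat2, which re-esterifies monoacylglycerol in enterocytes, was 4.99 ± 1.06 higher (adjusted p = 0.0361). Fabp4, the fatty acid binding protein of adipocytes, macrophages and capillary endothelium, was lower in IEL (log2 fold change -3.82 ± 0.75, limma, adjusted p = 0.0266), with 4.35 to 221 FPKM there and 212 to 2337 in LP. Beside it, 10 of the 11 tested genes of stroma, endothelium and adipocytes were lower in IEL at an unadjusted p under 0.05 by limma, with a list median of -2.88 and 0 called, and the other, Cidec, was higher. The endothelial gene Pecam1 was at 1.05 to 26.0 FPKM in IEL and at 0.120 to 383 in LP. The part of these cells in the Fabp4 difference was not tested. Fabp1 (5.71 ± 1.33, adjusted p = 0.0547) and Agpat2 (3.13 ± 0.75, adjusted p = 0.0572) also missed the threshold narrowly. Agpat2, an acyltransferase of phosphatidic acid synthesis, was at 96.9 to 350 FPKM in IEL and 0.435 to 86.6 in LP and was the 1 of the 101 with every IEL library above every LP library, an order seen in 0.632% of all genes. Dgat1, which completes triglycerides, was at 159, 0.282 and 541 FPKM in PA milk IEL and at 317, 927 and 392 in ND IEL, a layer difference of 1.46 ± 1.12 (adjusted p = 0.658). Fabp1 and Fabp2 are also epithelial markers, and Acsl5 differed between the layers in the direction of these genes.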

How the data were processed

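RNA of sorted ILC3s was analysed in 12 libraries, grouped by the sample labels. The sort took cells without lineage markers that stained for Nrp1, CD25, Thy1.2 and CD4 (CD45 in place of CD4 in a second description). The authors mapped reads to mm10 (submitters' notes: TopHat2 2.1.1, Bowtie2 2.2.8.0, SAMtools 0.1.18, Cufflinks and Cuffdiff 2.2.1) and deposited FPKM values for 23284 genes. The table named as counts that the authors deposited holds a scaled signal: its ratio to FPKM varied by under 1% between libraries for 89.2% of the genes checked, so no model for raw counts was used.

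The fit was limma 3.58.1 (R 4.3.3) on log2(FPKM + 1) fitted as 4 group means with variance moderated along mean expression and Benjamini-Hochberg adjustment over the 12502 genes that reached 1 FPKM in 3 or more libraries, at a threshold of 0.05. Reads were recovered from the steps of low values, of which 86.4% to 96.4% lay within 0.05 of whole multiples. The floor was 3 reads. Scripts were tested on simulated data. Members and gene lists were chosen with earlier results of these data known. Other pathway genes were named where they had the 2 highest mean FPKM of their list or passed the threshold. Those singled out for not overlapping were among them. Python 3.11.15, numpy 2.4.6, pandas 2.3.3 and matplotlib 3.10.9 were used. Values of 2 genes are not reported here.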

Additional observations from a re-analysis of the deposited data

How the results depend on the processing

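None of the 36 member fold changes was called in limma, and 15 kept their sign in every alternative while 21 turned in at least 1 (86 of 794 alternatives); 4 alternatives, all of Acsl5 between the layers, passed the threshold. Elovl6 and Acsl1 in LP and Acsl5 between the layers kept their direction in all of theirs. The cause of the other changes of sign was not tested. In IEL, sample quality weights gave 0.73 for Fasn, -0.19 for Acly, -0.51 for Scd2 and 0.32 for Elovl5; leaving out the 2 libraries with the fewest genes gave 0.76 for Fasn, -0.071 for Scd2, 0.69 for Elovl6 and 0.88 for Elovl5, and leaving out 3 (chosen after seeing the data) gave 0.94 for Fasn, -0.65 for Acly, -1.14 for Scd2, 0.62 for Elovl5 and 0.049 for Acsl5. A pseudocount of 0.1 gave 0.0098 for Elovl6. Leukocyte and upper quartile scaling gave -0.031 and -0.14 for Acsl3, and limma-voom on recovered reads, added after seeing the data, gave 0.87 for Elovl6, -0.066 for Acsl3 and 0.41 for Acsl5. In LP, Elovl5 was 0.67 with weights, 0.19 with leukocyte scaling, 0.19 with voom and 1.18 without the 2 or the 3 libraries. Acsl3 in LP was 0.34 with weights and 0.74 without the 2 or the 3 libraries. For the difference between layers of the diet change, Fasn was -0.20 with weights and -0.15 and -0.33 without 2 and 3 libraries, and Acsl3 was 0.16 with weights and 0.66 without 3. Between the layers, Fasn was 0.26 and 0.17 and Acly -0.63 and -0.25 without 2 and 3 libraries, Elovl6 was 0.47 with weights and 0.55 without 3, Acsl3 was 0.011 with weights and 0.048 without 3, and Acsl1 was -0.38 with voom.

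Leaving out 1 library at a time gave, in IEL, -0.54 to 0.76 for Fasn, -0.11 to 1.99 for Scd2, -1.33 to 0.69 for Elovl6, -1.80 to 0.88 for Elovl5, -0.92 to 1.05 for Acsl3 and -0.66 to 0.90 for Acsl5. In LP it gave -0.16 to 1.07 for Fasn, -1.66 to 0.71 for Scd2, -0.71 to 1.18 for Elovl5 and -1.24 to 0.74 for Acsl3. The difference between layers of the diet change ranged from -0.26 to 1.09 for Fasn, -0.89 to 2.06 for Elovl5, -1.93 to 0.58 for Acsl1 and -1.40 to 0.69 for Acsl3. The layer difference ranged from -0.36 to 0.31 for Fasn, -0.078 to 1.14 for Acly, -0.45 to 0.74 for Scd2, -0.61 to 0.35 for Elovl6, -0.30 to 1.11 for Acsl1 and -0.94 to 0.11 for Acsl3.

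Of all genes, limma called 110 between the layers, and 30 with no filter, 58 with a pseudocount of 0.1, 982 with weights, 58 with voom, 826 and 688 without 2 and 3 libraries and 38 to 521 with 1 library left out, the highest without PA milk LP replicate 2. The count of members called was 1, Acsl5, with weights, without 2 libraries and in the range 0 to 1 with 1 left out. Diet calls over all genes were 0 in each layer, against 1 in IEL without 3 libraries (0 to 1 with 1 left out), and 3 with weights, 5 with voom and 0 to 7 with 1 left out in LP. For the diet changes the block was the replicate number, which joined PA milk and ND libraries of the same number and so is no pairing by mouse. The calls were then 0 in IEL and 3 in LP. For the difference and the layers the block was the label number within a diet. The calls were then 1 for the difference and 29 between the layers, and Acsl5 had a limma adjusted p of 0.0936. Same-numbered libraries correlated in no pair above 0.1, so they were not treated as paired; this does not show that they came from different mice. Neither block called a member. The planned edgeR and DESeq2 tests were not run, since the table of counts is scaled and rounded. With 3 sparse libraries in 12, each value of 0 limits reads in the library rather than the cells.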
